A study of Mus musculus with 18 samples.

Results

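The Myc family and Max network was followed in mouse embryonic stem cells (mESCs) that were WT or lacked the histone methyltransferase gene Nsd1. Its members were taken by symbol from the expression table and are Myc, Mycn, Mycl, Max, Mga, Mxd1, Mxd3, Mxd4, Mxi1 and Mnt, which makes 10 of the 20703 genes listed, and all 10 were present. RNA came from E14 mESCs of WT and of KO-1 and KO-2, clonal lines with a homozygous deletion of exon 5 of Nsd1 that were made in cells whose Nsd1 gene carried a 3×Flag tag, so each KO line is a single clone. Whether the WT cells of the RNA-seq carried the tag is not given in the sources used here. Cells were collected at day 0, with LIF and MEF feeder cells, and at day 2 and day 4 after both were withdrawn and the cells were grown as a monolayer on gelatin. There were 2 biological replicates for each line and day, which gives 2 WT and 4 KO libraries at each day and 18 libraries in all.

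Myc, Mycn and Mycl are transcription factors of the basic helix-loop-helix leucine zipper class that bind DNA only as dimers with Max, mostly at the E-box CACGTG. With Max they recruit coactivators such as the TRRAP-TIP60 acetyltransferases and raise the transcription of genes for growth, ribosome assembly and ribosomal proteins. Mxd1, Mxd3, Mxd4, Mxi1 and Mnt pair with Max at the same sites but bring in the SIN3-HDAC corepressors. Mga is a very large Max partner that also has a T-box domain and belongs to the variant Polycomb complex PRC1.6, which keeps germ cell genes silent in mESCs. In mESCs, Myc and Mycn support self-renewal and proliferation, and Myc is a known target of LIF signalling.

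To show what the network binds, promoter sequences were taken from RefSeq on GRCm38.p6, with 250 bases before and 50 bases after the start of each gene. Of the 10 members, 9 matched the promoter table, and Myc was not matched. The E-box CACGTG, whose reverse complement is the same letters, was found in the promoters of Max, Mnt and Mxd4, 3 of the 9 matched members. It was found in 1476 of 13448 promoters of all genes listed (11%). The windows below show the E-box in capitals with 12 bases on each side, 5′ to 3′ on the strand of the gene, and the number gives the position of the first base of the box relative to the start site.
Max, chr12:76962234-76962263, minus strand, −3: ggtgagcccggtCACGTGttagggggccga
Mnt, chr11:74830789-74830818, plus strand, −123: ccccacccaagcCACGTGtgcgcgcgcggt
Mxd4, chr5:34187912-34187941, minus strand, −219: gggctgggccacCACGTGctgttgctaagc
A match is a description of these letters, and the binding of Myc or Max to them was not measured in the RNA-seq.

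Nsd1 was lower in all 4 KO libraries than in both WT libraries at each day, as the labels state. Normalized counts of Nsd1 were 3517 ± 202 (SD, n = 2 WT libraries) against 718 ± 85.4 (SD, n = 4 KO libraries) at day 0, and 2268 ± 222 against 818 ± 236 at day 4. A normalized count is the read count divided by the size factor of the library, and it was recovered from the deposited values. These are counts of DESeq2 after the variance stabilizing transformation (VST), on a log2 scale that compresses differences of weakly expressed genes. The libraries held from 9309874 to 23921193 counts on genes, and both WT libraries of day 2 were the shallowest, with 9309874 and 9356867. In every library most of the counts from 1 to 20 were even numbers (72.5% to 77.5%), so a count may not stand for 1 fragment. The members were covered unequally, from 13 to 194 counts per library for Mxd3 and from 30 to 230 for Mxd1, up to 1950 to 6035 for Mga.

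The defining markers of mESCs were present at day 0, where WT and KO had 9175 ± 144 and 6843 ± 477 normalized counts of Pou5f1, and 7968 ± 56.0 and 7349 ± 354 of Nanog. Markers of later cell states differed between the genotypes after the withdrawal of LIF. At day 4 the 4 primitive streak markers T, Mixl1, Eomes and Mesp1 summed to 29322 ± 577 normalized counts in WT and to 594 ± 286 in KO, with T alone at 16248 ± 272 in WT and 139.6 ± 90.4 in KO. At day 2 the 4 formative epiblast markers Fgf5, Otx2, Pou3f1 and Dnmt3b summed to 53352 ± 2003 in WT and 29979.6 ± 1396 in KO, but KO had the larger sum at day 0 (10246.5 ± 418.2 against 6678.5 ± 268.2) and at day 4 (21499.8 ± 1963.5 against 8894.5 ± 354.4). Dnmt3b, a DNA methyltransferase, made up most of this sum in every library. The 9 MEF feeder markers in the table summed to 3166 ± 65.8 in WT and 5052 ± 413 in KO at day 0 and to 2714 ± 91.2 and 921.5 ± 368 at day 4. Col1a1 was the most abundant of them in every library, and Lum had 0 counts in all 6 libraries of day 0. The part of these markers' cell types in the values below was not tested, and in bulk RNA fewer cells of a type and less RNA per cell cannot be told apart.

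The Myc family genes changed in different directions with time. Myc (ENSMUSG00000022346, chr15:61985391-61990374 on GRCm38) had 199.6 and 282 normalized counts in the 2 WT libraries of day 0 and 443, 462, 498 and 517 in the 4 KO libraries, of which the first 2 are KO-1 and the last 2 KO-2, as in every list below. At day 2 the WT libraries had 569 and 648 and the KO libraries 270.1, 276, 392 and 429.9. At day 4 the WT libraries had 1086 and 1203 and the KO libraries 326, 385, 567 and 543. The genotypes did not overlap at any day, with KO above WT at day 0 and below it at days 2 and 4. The mean ratios of KO to WT by day were 1.99, 0.562 and 0.398. On the VST scale KO minus WT was 0.46 at day 0 (SE 0.10, limma with Benjamini-Hochberg adjusted p = 1.57e-03), −0.43 at day 2 (SE 0.10, adjusted p = 1.51e-03) and −0.80 at day 4 (SE 0.10, adjusted p = 1.36e-06). A call required both an adjusted p below 0.01 and a log2 difference beyond 0.58 in either direction, so on this scale Myc was called at day 4 only.

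**Figure D1:**
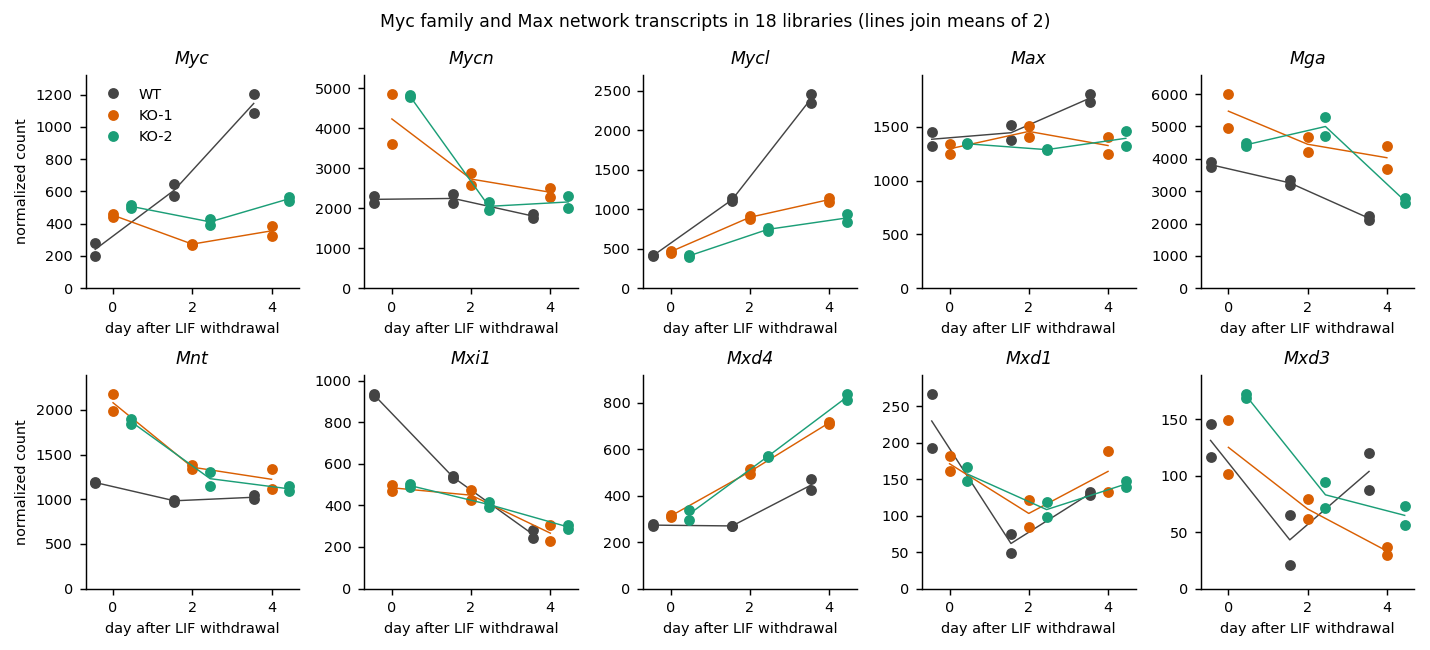
Normalized counts (y axis, from 0) of the 10 members by day after LIF withdrawal (x axis, with the lines of a day set apart sideways), with a point for each of the 18 libraries and lines through the means of 2 replicates for WT, KO-1 and KO-2. Myc and Mycl climbed to 1144.6 and 2407 in WT at day 4, far above both clones, while Mycn and Mnt stood highest in the KO libraries of day 0.

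Mycn (ENSMUSG00000037169, chr12:12936093-12941914 on GRCm38) was higher in KO at day 0. The WT libraries had 2312 and 2128 normalized counts and the KO libraries 3604, 4853, 4822 and 4788. The lowest KO value belonged to replicate 1 of KO-1, and the other 3 lay close together. The mean ratio of KO to WT was 2.03, with a log2 difference of 0.85 on the VST scale (SE 0.11, limma with Benjamini-Hochberg adjusted p = 7.01e-06). At day 2 the KO libraries, from 1944 to 2869.7, overlapped the WT libraries, at 2364 and 2122. Later, at day 4, the WT libraries had 1854 and 1757 and the KO libraries 2279.96, 2514, 2304 and 2006, all above WT, and the difference of 0.26 (SE 0.11) did not pass the test (adjusted p = 0.0796).

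Mycl (ENSMUSG00000028654, chr4:122995652-123002485 on GRCm38) was lower in KO at day 4. At day 0 the WT libraries had 418 and 406 normalized counts and the KO libraries 451, 476, 396 and 421, which overlap. At day 2 the WT libraries had 1106 and 1138 and the KO libraries 879.5, 919, 724 and 767. At day 4 the WT libraries had 2461 and 2352, and the KO libraries 1098, 1149, 942 and 839.97, at a mean ratio of 0.419. The KO libraries thus lay below both WT libraries at days 2 and 4. On the VST scale the difference was −0.93 at day 4 (SE 0.07, limma with Benjamini-Hochberg adjusted p = 1.94e-09) and −0.29 at day 2 (SE 0.07, adjusted p = 2.81e-03), which is under the fold threshold.

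Levels of different genes were compared per length, as normalized counts per kb of exon in GENCODE M21. In WT, Mycn led the 3 family members at day 0 with 674 ± 39.6 per kb (SD, n = 2), against 102 ± 2.09 for Mycl and 88.6 ± 21.4 for Myc, and the libraries of the last 2 overlapped. By day 4 the order in WT was Mycl with 596 ± 19.2, Mycn with 548 ± 20.7 and Myc with 421 ± 30.6, and neighbours in this order did not overlap. In KO, Mycn stayed first at every day, with 1371 ± 185 per kb at day 0, 724 ± 127 at day 2 and 691 ± 63.2 at day 4 (SD, n = 4). Mycl followed in KO at day 4 with 249 ± 35.2 and Myc with 168 ± 43.4. The libraries of Mycl and Myc in KO at day 4 overlapped. The share of Mycn in the summed per-kb level of the 3 genes went in WT from 77.9% ± 2.76 at day 0 to 57.5% ± 3.15 and 35.0% ± 1.12, and in KO from 82.7% ± 1.85 to 68.4% ± 4.51 and 62.3% ± 2.06.

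The sum of Myc, Mycn and Mycl was 864 ± 20.2 per kb in WT and 1655 ± 191 in KO at day 0, 1183 ± 25.9 and 1054 ± 117 at day 2, and 1565 ± 9.22 and 1108 ± 74.4 at day 4. The genotypes did not overlap at day 0 or day 4 and overlapped at day 2. The sum was thus highest at day 4 in WT and at day 0 in KO. Max, the common partner, was at 385 ± 24.8 per kb in WT and 367 ± 13.0 in KO at day 0 and 492 ± 14.7 and 378 ± 25.9 at day 4. The summed level of the 5 repressive partners Mxd1, Mxd3, Mxd4, Mxi1 and Mnt was 513 ± 0.293 in WT and 621 ± 29.9 in KO at day 0 and 374 ± 1.77 and 427 ± 22.8 at day 4. The ratio of the Myc family sum to this sum went from 1.69 ± 0.038 to 4.18 ± 0.044 in WT between day 0 and day 4, and from 2.66 ± 0.286 to 2.60 ± 0.158 in KO. No test was run on sums over the members, and transcript levels do not give protein levels.

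**Figure D2:**
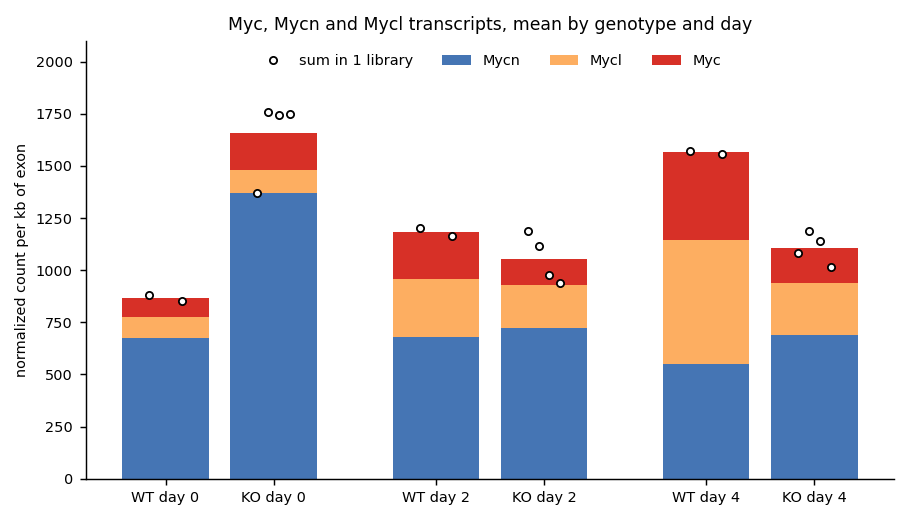
Mean normalized counts per kb of exon (y axis) of Mycn, Mycl and Myc stacked for each genotype and day (x axis), with an open point for the sum in each library. The WT bar grows from 864 to 1565 with Mycl and Myc, while the KO bar is highest at day 0, at 1655, and is mostly Mycn at every day.

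Max (ENSMUSG00000059436, chr12:76937269-76962201 on GRCm38), the shared dimer partner with which the Myc and Mxd proteins bind the E-box, did not pass the fold threshold at any day. The WT libraries of day 4 had 1806 and 1731 normalized counts and the KO libraries 1252, 1402, 1466 and 1322, all below WT. The log2 difference was −0.28 (SE 0.06, limma with Benjamini-Hochberg adjusted p = 1.03e-03). At days 0 and 2 its genotypes overlapped.

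Mga (ENSMUSG00000033943, chr2:119897228-119969581 on GRCm38) was above WT in all 4 KO libraries at each day. The WT and KO means were 3819 ± 115 and 4953 ± 741 normalized counts at day 0, 3256 ± 111 and 4723 ± 447 at day 2, and 2162 ± 92.4 and 3369 ± 820 at day 4. At day 4 the KO libraries had 4381, 3686, 2625 and 2786, with both KO-1 libraries above both KO-2 libraries, and the WT libraries had 2227 and 2096. The log2 difference from WT was 0.32 at day 0 (SE 0.13, limma with Benjamini-Hochberg adjusted p = 0.0792), 0.46 at day 2 (SE 0.13, adjusted p = 7.95e-03) and 0.50 at day 4 (SE 0.13, adjusted p = 5.02e-03), under the fold threshold at each day.

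Mnt (ENSMUSG00000000282, chr11:74830920-74845725 on GRCm38), the broadly expressed repressive partner of Max, had 1184 and 1189.8 normalized counts in the WT libraries of day 0 and 1985, 2175, 1844 and 1896 in the KO libraries. The difference was 0.54 on the VST scale (SE 0.07, limma with Benjamini-Hochberg adjusted p = 3.50e-06), just under the fold threshold, and the mean ratio was 1.66. WT was also below each of the KO libraries at day 2, at a ratio of 1.32, and at day 4, at a ratio of 1.14. The difference was 0.27 at day 2 (SE 0.07, limma with Benjamini-Hochberg adjusted p = 2.53e-03), under the fold threshold. At day 4 it was 0.13 (SE 0.07, adjusted p = 0.145) and did not pass the test. Mnt was the most abundant repressive partner per kb in every group, with 257 ± 0.85 in WT and 427 ± 31.5 in KO at day 0.

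Mxi1 (ENSMUSG00000025025, chr19:53310518-53375810 on GRCm38) showed the opposite order at day 0. The WT libraries had 934 and 928 normalized counts and the KO libraries 471, 499, 502 and 489, at a mean ratio of 0.526. The log2 difference was −0.54 on the VST scale (SE 0.05, limma with Benjamini-Hochberg adjusted p = 2.10e-07), again just under the fold threshold. Mxi1 then declined in WT to 262 ± 28.2 at day 4, where KO had 281 ± 36.1 and the genotypes overlapped.

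Mxd4 (ENSMUSG00000037235, chr5:34173883-34187720 on GRCm38) was higher in KO after the withdrawal of LIF. At day 0 the KO libraries, from 297 to 340 normalized counts, also lay above the WT libraries, at 268 and 279. That difference of 0.09 on the VST scale (SE 0.05) did not pass the test (limma with Benjamini-Hochberg adjusted p = 0.237). At day 2 the WT libraries had 269 and 271 normalized counts and the KO libraries 514, 494, 566 and 572, at a mean ratio of 1.99. By day 4 the WT libraries had 423 and 470.4 and the KO libraries 709, 719.7, 814 and 837. The genotypes lay far apart at both days against the spread of the replicates. The log2 differences were 0.47 at day 2 (SE 0.05, limma with Benjamini-Hochberg adjusted p = 5.13e-07) and 0.44 at day 4 (SE 0.05, adjusted p = 1.08e-06) and stayed under the fold threshold on the VST scale.

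Mxd1 (ENSMUSG00000001156, chr6:86647042-86669161 on GRCm38), a repressor known to be induced as cells differentiate, and Mxd3 (ENSMUSG00000021485, chr13:55325168-55329823 on GRCm38) had the fewest reads of the members, at most 230 and 194 counts in any library before scaling, with no correction for length. Mxd1 had 229.5 ± 51.8 normalized counts in WT and 164 ± 14.2 in KO at day 0, and 61.7 ± 18.2 and 105.5 ± 17.1 at day 2. Mxd3 had 104 ± 22.9 in WT and 49.0 ± 19.7 in KO at day 4, with its KO libraries at 29.3, 37.2, 56.7 and 73.0. The exons of Mxd3 share 105 bases with Prelid1 on the opposite strand, a gene with up to 3678 normalized counts, and the library kit named in the labels does not keep the strand, so reads of Mxd3 and Prelid1 there cannot be told apart. Exons of Mxd4 and Mxi1 also share 514 bases with Gm42846 and 194 bases with Gm10197 on the opposite strand, and neither of these genes is in the table. Neither Mxd1 nor Mxd3 was called at any day on the VST scale.

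Across the 10 members, limma on the VST values called 1 higher (Mycn) and 0 lower at day 0, 0 in either direction at day 2, and 0 higher and 2 lower (Myc and Mycl) at day 4. Of all genes tested, 1.73% were called higher and 0.879% lower at day 0, 4.01% and 2.37% at day 2, and 3.67% and 3.91% at day 4. At day 2, 8 of the 10 members had an unadjusted p under 0.05 in the limma fit, below the fold threshold, as had 10823 of all 20703 genes without regard to the fold threshold. The members had median differences of 0.07, 0.12 and 0.05 on the 3 days, beside 0.00, −0.02 and 0.00 for all genes.

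**Figure D3:**
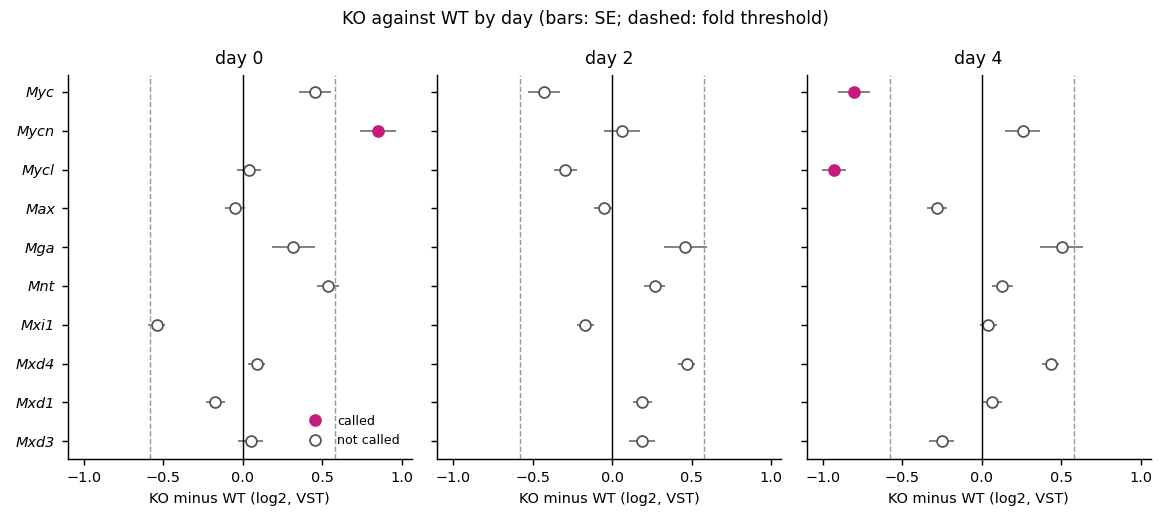
KO minus WT for each member (y axis) on the VST scale in log2 units (x axis) at days 0, 2 and 4, with bars for the SE of the limma fit, filled points for called members and dashed lines at the fold threshold of 0.58. Mycn passes at day 0 with 0.85, no member passes at day 2, and Mycl and Myc pass at day 4 with −0.93 and −0.80.

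The recovered counts were tested beside the VST values with limma-voom, whose fold changes are not compressed. It called Myc (1.07), Mycn (1.02) and Mnt (0.73) higher and Mxi1 (−0.92) lower at day 0, Mxd4 (0.99) higher and Myc (−0.85) lower at day 2, and Mxd4 (0.78) and Mga (0.60) higher and Mycl (−1.26), Myc (−1.36) and Mxd3 (−1.17) lower at day 4, as log2 differences. On this scale 6.43% of all genes were called higher and 6.86% lower at day 0, 10.3% and 13.6% at day 2, and 10.9% and 13.0% at day 4. At day 2 the median of all genes was −0.14 in limma-voom, so relative to it Mxd4 was higher and Myc lower in the same directions. Counting libraries alone, every KO library exceeded both WT libraries for 5, 4 and 4 members on days 0, 2 and 4, and lay below both for 2, 3 and 4. The same held above for 23.1%, 26.2% and 23.9% of all genes at the 3 days and below for 24.3%, 31.4% and 25.9%. With 4 libraries against 2, an exact two-sided permutation test of a single gene cannot give a p below 0.0667.

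Over time, Myc and Mycl rose in WT and Mga and Mxi1 fell. From day 0 to day 4 in WT, limma on the VST values called Mycl (1.66, SE 0.09) and Myc (1.21, SE 0.12) higher and Mxi1 (−0.96, SE 0.06) and Mga (−0.68, SE 0.15) lower, where 7.68% of all genes were called higher and 6.16% lower. In normalized counts Mycl rose 5.85 times and Myc 4.75 times. The call of Mga in WT did not hold in every setting run. Mycn was not called in WT, with −0.23 (SE 0.13, limma with Benjamini-Hochberg adjusted p = 0.151). In KO over the same interval Mycl (0.70, SE 0.06) and Mxd4 (0.67, SE 0.04) were called higher and Mycn (−0.83, SE 0.09) lower, with 3.44% of all genes called higher and 3.06% lower. Mxi1 and Mga were also lower at day 4 in KO, by less than the fold threshold, with −0.38 for Mxi1 (SE 0.04, limma with Benjamini-Hochberg adjusted p = 3.96e-07) and −0.50 for Mga (SE 0.11, adjusted p = 7.41e-04). Myc in KO differed by −0.05 (SE 0.08, limma with Benjamini-Hochberg adjusted p = 0.656) between those days. With limma-voom Mxd4 was also called higher and Mxd1 lower in WT, where 17.1% of all genes were called higher and 17.6% lower, and Mnt, Mxd3 and Mxi1 were also called lower in KO, where 12.7% and 14.8% were.

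The difference between the genotypes itself was tested as an interaction in the same fit. From day 0 to day 4 the KO effect changed by −1.26 for Myc (SE 0.14, limma with Benjamini-Hochberg adjusted p = 7.30e-07), by −0.97 for Mycl (SE 0.10, adjusted p = 4.31e-07), by −0.59 for Mycn (SE 0.16, adjusted p = 7.47e-03) and by 0.58 for Mxi1 (SE 0.08, adjusted p = 5.27e-06). These 4 members were called, and 6.93% of all genes were. Mycn and Mxi1 sit at the threshold, and limma-voom called only Myc, Mycl and Mxi1, with 14.9% of all genes. With a replicate block Mycn was no longer called. From day 0 to day 2 the effect was called for Myc (−0.88, SE 0.14) and Mycn (−0.79, SE 0.16), with 3.19% of all genes called, and limma-voom called Mxd4 besides (0.78, SE 0.19, adjusted p = 6.70e-03), with 7.34% of all genes. From day 2 to day 4 it was called for Mycl alone, by −0.63 (SE 0.10, adjusted p = 9.88e-05), with 6.41% of all genes called, while limma-voom called Mycl and Mxd3, with 13.8% of all genes. These comparisons share their WT and KO libraries with those of single days.

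Between the clones, limma on the VST values called 0 members at each day, while limma-voom called 0, 0 and 1. Of all genes, limma called 0.0290% at day 0, 0.0435% at day 2 and 0.251% at day 4 on the VST scale. The number of members with an unadjusted p under 0.05 was 1, 4 and 5 of 10 by day, beside 3057, 2539 and 5234 of all 20703 genes. At day 4 KO-1 exceeded KO-2 in Mga by 0.48 (SE 0.08, limma with Benjamini-Hochberg adjusted p = 1.01e-03) and in Mycl by 0.22 (SE 0.05, adjusted p = 9.01e-03) and lay below it in Myc by −0.32 (SE 0.06, adjusted p = 2.96e-03), all under the fold threshold. The call of limma-voom at day 4 was Myc, among 2.23% of all genes. Nsd1 itself was higher in KO-1 than in KO-2 at day 4, by 0.41 (SE 0.08, adjusted p = 2.94e-03).

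Ribosomal protein genes, which are classic Myc targets, were set beside the members because they were lower in KO. Of 92 such genes in the table, 88 had a lower mean in KO on day 0, and 86 and 81 did on days 2 and 4. limma on the VST values called 0, 50 and 0 of them lower on these days, and called 0, 1 (Rpl10l) and 2 (Rpl10l and Rpl39l) higher, where Rpl39l was named after its values were seen, against the shares of all genes given above. The count at day 2 rests on single libraries of that day, since it was 12 without replicate 1 of WT and 53 without replicate 2, and it was 33 without replicate 2 of KO-2 of day 2. With a WT library left out, day 2 keeps 1 WT library, and the spread in such a fit comes from the other groups. The median differences of the 92 genes on the 3 days were −0.24, −0.60 and −0.16. The 3 genes with the lowest adjusted p at day 2 were Rpl10l, a copy expressed mainly in testis, which was higher in KO with 1739 ± 227 against 521 ± 5.42 normalized counts, and Rpl13a and Rps27rt, which were lower with 1295 ± 213 against 2480.1 ± 46.2 and 90.5 ± 17.8 against 237 ± 17.5. Many ribosomal protein genes have near-identical copies, so their single values are uncertain.

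The ribosomal protein genes took 4.74% ± 0.09 of the counts in WT and 3.94% ± 0.627 in KO at day 0, 6.41% ± 0.695 and 4.07% ± 0.623 at day 2, and 4.31% ± 0.01 and 3.91% ± 0.731 at day 4. The highest shares were thus those of the shallow WT libraries of day 2, with 5.92% and 6.90%. The lowest share, 3.05%, was that of replicate 1 of KO-1 at day 0, which had 9644240 counts on genes. The part of depth in these shares was not tested. Averaged over the 92 genes on the VST scale, the differences from WT on days 0, 2 and 4 were −0.22 ± 0.183, −0.54 ± 0.170 and −0.12 ± 0.218 (SD, n = 4 KO libraries). The mean of day 4 turned positive under limma-voom, at 0.0396 with the size factors of the authors and 0.0623 and 0.0559 with the other scalings. With the size factors of the authors, 81 of the 92 genes were still negative in limma-voom, at a median of −0.18. The KO and WT libraries did not overlap at days 0 and 2. At day 4 the KO-1 libraries lay below WT by −0.36 and −0.25, and the KO-2 libraries above it by 0.05 and 0.07.

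The Myc family genes and the mean of the ribosomal protein genes were set side by side by day and clone. At day 0 the ribosomal protein mean was −0.35 in KO-1 and −0.10 in KO-2, while Myc was 0.41 and 0.50 and Mycn 0.77 and 0.94 above WT. At day 2 it was −0.41 in KO-1 and −0.67 in KO-2, with Myc at −0.56 and −0.30, Mycl at −0.21 and −0.38, and Mycn at 0.23 and −0.10. At day 4 it was −0.31 in KO-1 and 0.06 in KO-2, with Myc at −0.97 and −0.64, Mycl at −0.82 and −1.04, and Mycn above WT at 0.32 and 0.20. At day 0 the ribosomal protein mean lay below WT, and Myc and Mycn lay above it. At day 2 the ribosomal protein mean lay below WT, as did Myc and Mycl. In KO-2 at day 4 Myc and Mycl lay below WT and the ribosomal protein mean slightly above it. On the VST scale 0 of the 92 genes were called lower at day 0, Myc was not called at days 0 and 2, and Mycl was not called at day 2. The values are from 3 days of 2 clones measured against the same 2 WT libraries of a day, and no test was run across them.

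**Figure D4:**
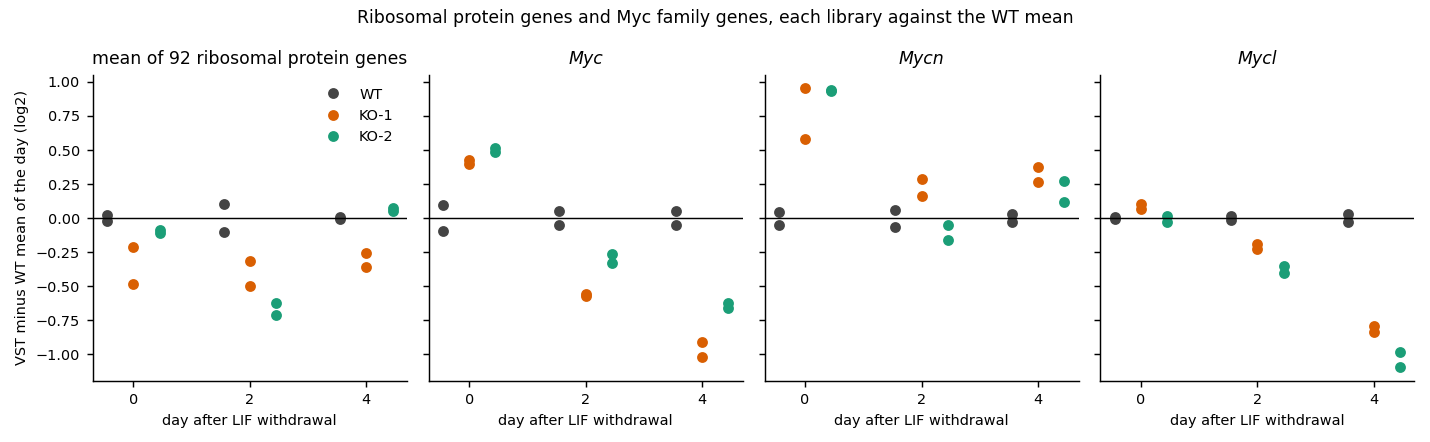
Difference from the WT mean of the day on the VST scale in log2 units (y axis) for the mean of the 92 ribosomal protein genes, Myc, Mycn and Mycl by day after LIF withdrawal (x axis, with lines set apart sideways), with a point for each of the 18 libraries. Ribosomal protein genes are lowest at day 2, at −0.54 on average in KO, whereas Mycl is lowest at day 4, at −0.93.

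Within groups, the difference between replicate 1 and replicate 2 in a member was compared with that in the ribosomal protein mean over the 9 groups of line and day, with 10 relations computed. Pearson's r was 0.83 for Mycn (exact permutation p = 0.0030, two-sided, adjusted p = 0.0296 over the 10), with Spearman's rho of 0.75 (exact permutation p = 0.0255), and 6 of 9 groups had the same sign in both. It was −0.79 for Mga (exact permutation p = 0.0089, adjusted p = 0.0444), with rho of −0.75 (exact permutation p = 0.0255), and 0.78 for Mxd3 (exact permutation p = 0.0136, adjusted p = 0.0454), with rho of 0.55 (exact permutation p = 0.133). Without WT of day 2 and KO-1 of day 0, the 2 groups farthest from the median, r was 0.62 for Mycn, −0.73 for Mga and 0.45 for Mxd3, so the relation of Mxd3 rests on those groups. Which library is replicate 1 is arbitrary, and with differences that were not centred, so that the order does not matter, no relation passed (exact sign-flip test, lowest adjusted p = 0.189). For Myc r was −0.03 (exact permutation p = 0.946) and for Mycl −0.05 (exact permutation p = 0.892), which does not show that they are unrelated. The share of all genes that reach such an r is not given here, so these relations cannot be called particular to the members. Depth differs between replicates and its part was not tested.

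**Figure D5:**
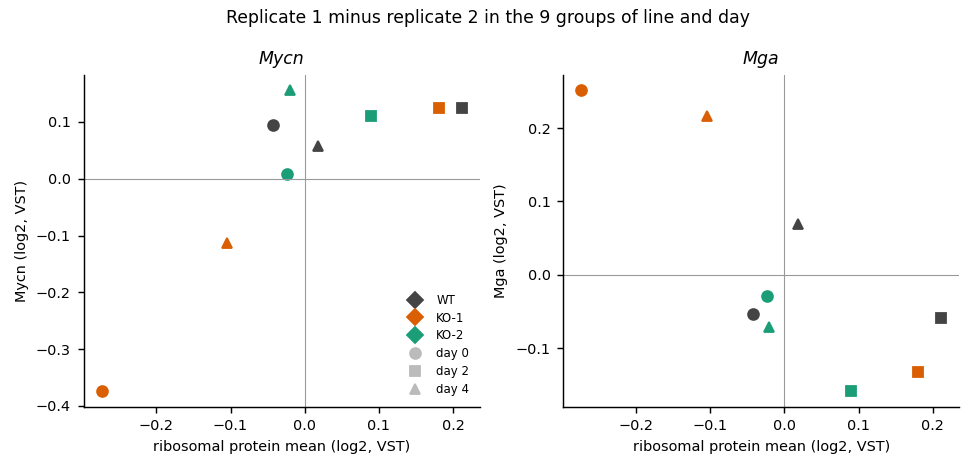
Replicate 1 minus replicate 2 of Mycn (left) and Mga (right) on the VST scale in log2 units (y axis) against the same difference in the mean of the ribosomal protein genes (x axis), with colours for the lines and shapes for the days, 9 groups in all. The KO-1 libraries of day 0 lie far to the lower left for Mycn, at −0.27 and −0.37, and to the upper left for Mga, at 0.25.

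The cofactors of the network were counted in the same fits, to be read beside the shares of all genes given above. Of 15 genes for TRRAP-TIP60 subunits, 1 was called lower at day 0 (Ruvbl2) and 1 higher and 1 lower at day 2. At day 2 these were Ep400, a chromatin remodelling ATPase, with 3272 ± 427 normalized counts in KO against 1947 ± 190 in WT, and Ruvbl2, an ATPase of the same complex, with 2346 ± 77.1 against 4682 ± 146. With limma-voom 1 of the 15 was called lower at day 0, and 1 higher and 3 lower at day 2. Of 14 SIN3-HDAC genes in the table, 1 was called, Rbbp7, a histone-binding subunit, which was higher at day 4 with 11600 ± 1028 against 7345 ± 142. No gene of the 3 in the neighbouring Mlx branch was called at any day on the VST scale, although limma-voom called Mlxip higher and Mlxipl lower at day 2. Medians of these 3 lists lay between −0.11 and 0.11 on the VST scale at each day.

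Among 17 genes that set the stability of Myc proteins, 0 were called at day 0, 1 higher at day 2 (Fbxw7, a ubiquitin ligase subunit, named after its values were seen), and 2 higher and 1 lower at day 4 on the VST scale, beside the shares of all genes given above. With limma-voom 1 was called higher at day 0, 1 higher and 1 lower at day 2, and 2 higher and 2 lower at day 4. Higher at day 4 on the VST scale were the deubiquitinases Usp28 (1379.7 ± 209.9 normalized counts in KO against 631 ± 92.4 in WT) and Usp7 (9949 ± 1224 against 5847 ± 242), and lower was the ubiquitin ligase subunit Fbxl14 (1404 ± 102 against 3975 ± 243). The log2 differences on the VST scale were 0.72 for Usp28 (SE 0.09, limma with Benjamini-Hochberg adjusted p = 2.71e-06), 0.70 for Usp7 (SE 0.10, adjusted p = 6.25e-06) and −1.20 for Fbxl14 (SE 0.06, adjusted p = 5.05e-13).

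Other genes that Myc is known to activate were counted on both scales, beside the same shares of all genes. Of 40 genes for nucleolar ribosome assembly, 1 was called lower at day 0 (Dkc1, the rRNA pseudouridine synthase, with 3683 ± 215 normalized counts in KO against 5969 ± 373), 1 lower at day 2 (Wdr43, 3249 ± 136 against 5616 ± 121) and 1 higher at day 4 (Rrp12, 3289 ± 332 against 1996 ± 196). With limma-voom 1 was called lower at day 0, 7 lower at day 2 and 2 higher at day 4. Their median differences by day were 0.00, −0.20 and 0.17, and 34 of 40 had a higher mean in KO at day 4. Of 32 growth and metabolism targets, 1 was called lower at day 0 (Shmt2), 3 lower at day 2 (Ldha, Hspe1 and Slc7a5), and 1 higher (Bcat1) and 1 lower (Ldha) at day 4. With limma-voom 2 were called higher and 2 lower at day 0, 5 lower at day 2, and 3 higher and 1 lower at day 4. At day 2 Ldha, the glycolytic lactate dehydrogenase, had 25293 ± 850 normalized counts in KO against 50344 ± 1124 in WT, and Hspe1, a mitochondrial chaperonin, had 3384 ± 500 against 6665 ± 831. The median of these 32 genes was −0.13, −0.22 and 0.01 at the 3 days. Of 9 genes that Myc is known to repress, 1 was called lower at day 0 (Ndrg2, 626 ± 30.5 against 1457 ± 61.2), 1 higher at day 2 (Cdkn1a, a cyclin-dependent kinase inhibitor, 941 ± 131 against 457 ± 22.4) and 1 lower at day 4 (Gata6, 12.2 ± 6.96 against 543 ± 41.9), with medians of −0.25, 0.28 and 0.03. With limma-voom 4 of the 9 were called lower at day 0 (Ddit3, Ndrg1, Ndrg2 and Gata6), 2 higher (Cdkn1a and Cdkn2b) and 2 lower (Ddit3 and Ndrg2) at day 2, and 2 higher (Cdkn2b and Gadd45a) and 1 lower (Gata6) at day 4. Ddit3, Ndrg1, Cdkn2b, Gadd45a, Wdr43, Rrp12, Shmt2, Slc7a5, Bcat1, Cdkn1a and Gata6 were named after their values were seen.

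On the VST scale the germ cell genes that Mga, Max and PRC1.6 keep silent were called in both directions at days 0 and 2. At day 4 they were called only higher. Of 19 such genes, 1 was called higher (Sohlh2) and 2 lower (Stra8 and Mael) at day 0, 3 higher (Sohlh2, Smc1b and Hormad1) and 2 lower (Mael and Tdrd1) at day 2, and 6 higher and 0 lower at day 4. With limma-voom 4 were called higher and 6 lower at day 0, 4 higher and 9 lower at day 2, and 9 higher and 1 lower at day 4, and the shares of all genes are those given above for each scale. From day 0 to day 4 on the VST scale, 0 of the 19 were called higher and 9 lower in WT, and 2 higher and 3 lower in KO. With limma-voom these counts were 0 and 13 in WT and 4 and 7 in KO. The shares of all genes for this interval are given above. Sohlh2, a germ cell transcription factor, had means of 731, 146 and 1.01 normalized counts in WT over the 3 days. In KO its means were 2300, 4253 and 4318. At day 4 Ddx4, the germ cell RNA helicase, had 244 ± 8.88 in WT and 1385 ± 107 in KO. The other 4 called higher at day 4, which like the other genes of this list in parentheses above were named after their values were seen, were Hormad1 (0 in WT and 132 ± 26.0 in KO), Slc25a31 (0 and 56.9 ± 16.0), Stk31 (12.2 ± 8.34 and 326 ± 20.8) and Meioc (119 ± 11.1 and 477 ± 22.7). Of the 11 genes for PRC1.6 subunits, Tfdp2, a dimer partner of E2f6, was called higher at days 2 and 4. It had 5236 ± 686 against 2645 ± 89.3 at day 2 and 3614 ± 212 against 1421 ± 42.9 at day 4. No other of the 11, among them Tfdp1, was called on the VST scale. With limma-voom 1 of the 11 was called higher and 0 lower at day 0, 1 higher and 0 lower at day 2, and 1 higher and 1 lower at day 4.

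The E-box was found in 10 of the 18 germ cell gene promoters matched (55.6%), against 11% of all promoters, 6 of 68 ribosomal protein promoters (8.8%), 8 of 34 nucleolar assembly promoters (23.5%), 9 of 27 growth and metabolism promoters (33.3%) and 2 of the 3 promoters of the Mlx branch (66.7%). The box was in 1 of 12 TRRAP-TIP60, 1 of 11 SIN3-HDAC, 1 of 9 PRC1.6 and 1 of 14 protein turnover promoters. It was in 0 of 6 promoters of genes that Myc is known to repress. The germ cell genes were listed as known targets of Mga and Max, so their high share is no independent support for binding. The germ cell genes with the box went both ways. They include Mael and Tdrd1, which were called lower at earlier days on the VST scale. Stag3, Sycp1, Sycp3 and Taf7l also had the box. Only the windows of germ cell genes called higher at day 4 are shown, on GRCm38.p6 with the E-box in capitals and the position of its first base relative to the start site.
Ddx4, chr13:112652322-112652351, minus strand, −29: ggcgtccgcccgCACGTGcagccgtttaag
Hormad1, chr3:95559608-95559637, plus strand, −57: caaagggtgcgcCACGTGccagtgacagtt
Hormad1, chr3:95559645-95559674, plus strand, −20: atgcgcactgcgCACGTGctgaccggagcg
Slc25a31, chr3:40708766-40708795, plus strand, −93: cgcaactggaaaCACGTGttatggtcacat
Stk31, chr6:49395472-49395501, plus strand, −55: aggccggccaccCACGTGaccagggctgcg
No window is shown for Sohlh2 or Meioc, and a promoter without these letters in its 300 bases says nothing about the binding of Mga or Max.

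By pattern across the 18 libraries, the genes most like each Myc family member were taken among 6017 genes with a mean VST value of at least 10, as a description of libraries that share depth, day and genotype. For Mycn the nearest gene was Mnt (Pearson's r = 0.93), followed by Ipmk (0.90), Wtap (0.90), Cdh3 (0.90) and N4bp3 (0.89). For Mycl they were Igsf9 (0.98), Ptk7 (0.98), Map7d1 (0.97), Jade2 (0.97) and Vrtn (0.96). For Myc they were Snap23 (0.92), Pdcd6 (0.89), App (0.89), Tpm3 (0.88) and Fbxl14 (0.88). Mnt, a repressive partner of Max, was thus the gene whose pattern was nearest to that of Mycn, and Fbxl14 of the protein turnover list was among the 5 genes most like Myc.

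Genes of the cell states moved with the genotype at the same days, where on the VST scale 1.73% of all genes were called higher and 0.879% lower at day 0, 4.01% and 2.37% at day 2, and 3.67% and 3.91% at day 4. At day 2, 7 of 9 ESC markers were called higher and 1 lower in KO on the VST scale, with Esrrb at 2718 ± 60.4 normalized counts against 428 ± 11.96 and Zfp42 at 3610.3 ± 167 against 693 ± 33.0, while Pou5f1 was lower with 5266 ± 618 against 8886 ± 705. All 4 formative epiblast markers were called lower at day 2, with Fgf5 at 107 ± 87.8 against 1570.2 ± 146 and Pou3f1 at 1428 ± 114 against 5679 ± 48.6. On the other days the same list did not move one way, with Dnmt3b called higher at day 0, and Dnmt3b called higher and Fgf5 lower at day 4. At day 4, when Myc and Mycl were called lower, all 4 primitive streak markers were called lower, with Mixl1 at 38.9 ± 12.1 against 6829 ± 141. On that day 7 of 9 ESC markers were called higher and 1, Tdgf1, lower. Of the ESC markers Dppa3 alone was called at day 0, higher in KO. Dnmt3b, Tdgf1 and Dppa3 were named after their values were seen. At day 0, when Mycn was called higher, 3 of 9 MEF feeder markers were called higher, with Col1a1 at 2732 ± 290.3 against 1482 ± 15.8 and Col3a1 at 336 ± 38.0 against 99.3 ± 10.2, and 1 lower, Pdgfrb at 182 ± 25.3 against 523 ± 23.2. Of these 9 markers, 0 were called higher and 1 lower at day 2, and 0 higher and 2 lower at day 4. With limma-voom 4 were called higher and 1 lower at day 0, 0 and 2 at day 2, and 0 and 5 at day 4.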

How the data were processed

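RNA-seq libraries of poly(A) RNA were analysed. Per the methods of the study and the submitters' processing notes, reads were trimmed with Trim Galore 0.6.7, aligned to mm39 with STAR 2.7.11a and counted on exons with featureCounts 2.0.6, genes with a low average count were removed, and the authors deposited VST values in log2 units made with DESeq2 1.42.0 (20703 genes). When this transformation was inverted, it gave whole counts for 100.0% of values (tolerance 0.02) and the size factors of the authors. The lowest VST value, 8.359, stands for 0 counts. Between 72.5% and 77.5% of the counts from 1 to 20 in a library were even numbers. Whether read pairs were counted as 2 was not tested, so a count may not stand for 1 independent fragment and the counting error may be larger than the counts imply, also in limma-voom.

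limma 3.58.1 (R 4.3.3) with a trended prior was fitted to the VST values in 6 groups of genotype and day (9 groups of line and day for the clones), with Benjamini-Hochberg adjustment over all genes. Thresholds for a call were 0.01 for the adjusted p and 0.58 for the size of the log2 fold change. limma-voom was run on the recovered counts. In the 9 groups, p-values measure the spread between replicates described only as biological. In the 6 groups, the spread in KO joins that of the replicates with the difference between the 2 clones. The 4 KO libraries of a day are thus not 4 independent lines, and WT is 1 line. The p-values do not measure the spread between independently made lines. Data were simulated for KO against WT at day 2 with 20703 genes. VST fits called 104 of 200 changed genes and 0 unchanged ones, and limma-voom 180 and 4. The simulated counts were independent negative binomial draws with preset fold changes. They had neither differences between clones nor the excess of even counts, so these numbers do not give the error rates in the real data.

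The members and lists were chosen with earlier results of these data known. Named were the 10 members, Nsd1, and of each other list up to 2 called genes with the largest rises and 2 with the largest falls at the day with most calls, Sohlh2, and the 3 ribosomal protein genes with the lowest adjusted p at day 2. GENCODE M21 (GRCm38, not the build of the authors) gave lengths and positions, with 99.5% of genes matched. Alternatives were each day alone, clones apart or alone, a replicate block, a filter on low values, quantile normalization, centring, no trend, limma-voom with 3 scalings, another threshold, and each library left out. Where a WT library was left out, its group kept a single library and the spread came from the other groups. Figures were drawn with matplotlib 3.10.9.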

Additional observations from a re-analysis of the deposited data

Results flagged for a closer look

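Among the 4 KO libraries of day 0, replicate 1 of KO-1 stood apart in 2 members. In Mycn it had a VST value of 12.048 where the other 3 lay between 12.405 and 12.423, so its gap was 0.954 of the whole range, above Dixon's critical value for 4 samples. In Max it had 10.852 where the others lay between 10.922 and 10.928, a gap of 0.921 of the range. In all 33 groups of 4 libraries were examined, and chance alone marks about 1 in 20 groups. The same library had the fewest counts on genes of the 4, 9644240, where the others had from 15962776 to 18263995. It also had the lowest mean of the ribosomal protein genes of day 0, −0.48 from WT. The part of this library and of its depth in the values was not tested.

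The KO effect differed between days in the interaction test of limma with Benjamini-Hochberg adjustment for 7 values. From day 0 to day 2 it changed by −0.88 for Myc (adjusted p = 1.42e-04) and by −0.79 for Mycn (adjusted p = 1.17e-03). From day 0 to day 4 it changed by −1.26 for Myc (adjusted p = 7.30e-07), −0.97 for Mycl (adjusted p = 4.31e-07), −0.59 for Mycn (adjusted p = 7.47e-03) and 0.58 for Mxi1 (adjusted p = 5.27e-06). From day 2 to day 4 it changed by −0.63 for Mycl (adjusted p = 9.88e-05). The value of Mycn from day 0 to day 4 was not called in limma-voom (Benjamini-Hochberg adjusted p = 0.0116) or with a replicate block. In the ribosomal protein mean at day 4 both KO-1 libraries lay below WT and both KO-2 libraries above it, a difference between the clones of −0.37 that was not tested.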

How the results depend on the processing

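Of 60 log2 differences of the members, 14 were called, all 14 kept their sign in every setting run and 11 were called in every setting. The exceptions were Mga in WT from day 0 to day 4 and Mycn and Mxi1 in the difference of KO effects from day 0 to day 4. With 2 biological replicates per line and day, and from 9309874 counts per library, depth limits mostly Mxd1 and Mxd3. Replicate numbers did not pair the libraries (mean correlation of deviations −0.05, from −0.61 to 0.64 over 36 pairs of groups, 13 of them over 0.1, 10352 genes). With a replicate block the difference of KO effects of Mycn, −0.59, was no longer called (limma with Benjamini-Hochberg adjusted p = 0.0104) and the block gave 48 ribosomal protein genes called lower at day 2. It changed no other call of a member.

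Members called at day 0 numbered 2 with KO-1 alone or quantile normalization, 4 under each of the 3 limma-voom scalings and 5 at an adjusted p under 0.05 without a fold threshold, against 1. At day 2 they numbered 2 under limma-voom and 7 at an adjusted p under 0.05, against 0, and at day 4 they numbered 5 and 6, against 2. Over time they numbered 7 in WT at an adjusted p under 0.05, against 4, and in KO 6 under limma-voom and 7 at an adjusted p under 0.05, against 3. In the difference of KO effects from day 0 to day 4 they numbered 2 with KO-1 alone and 7 at an adjusted p under 0.05, against 4, and from 2 to 4 with libraries left out, with 2 without replicate 1 of WT of day 0, replicate 2 of WT of day 4 or replicate 2 of KO-2 of day 4. Between the clones at day 4, limma-voom called 1 against 0.

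Signs turned only in values that were not called. With KO-2 alone they were −0.0061 (Mycl at day 0), −0.10 (Mycn at day 2) and 0.069 (Myc in KO over time), with KO-1 alone −0.023 (Mxd3 at day 0) and 0.0093 (Max at day 2), and with quantile normalization −0.014 (Mycn at day 2). With libraries left out they ranged from −0.0145 to 0.14 (Mycn at day 2), from −0.0036 to 0.086 (Mxi1 at day 4) and from −0.11 to 0.022 (Myc in KO over time). The ribosomal protein mean at day 4 was 0.064 with KO-2 alone and 0.0396, 0.062 and 0.056 in limma-voom, where the median, −0.18 with the size factors of the authors, was negative. Ribosomal protein genes called lower at day 2 numbered 32 with each day alone, 14 with KO-1 alone, 23 with quantile normalization and 84 at an adjusted p under 0.05, and from 12 to 66 with libraries left out. The last of these counts, and the differences that were not centred, were added after seeing the data. For the replicate differences, r was −0.79 (Mga) and 0.76 (Mxd3) with log2 of normalized counts plus 1, −0.77 and 0.77 with centred libraries, and 0.83 (Mycn), −0.79 (Mga) and 0.78 (Mxd3) with differences not centred, none past 0.05 after adjustment, and 0.45 for Mxd3 without the 2 farthest groups. For Myc r was 0.052 with log2 counts and 0.39 without the 2 farthest groups, and for Mxd4 −0.032 with centred libraries. The cause of these changes was not tested.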
